A study of Bos taurus with 36 samples.

Results

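The genes described here encode the proteins of the cytosolic ribosome. They were all genes of the bovine array whose only symbol in the array annotation begins with RPL or RPS and a number, or is RPLP0, RPLP1, RPLP2 or RPSA, without the S6 kinases (RPS6K) and hyphenated symbols. By this rule 69 genes were found, 43 named for the large (60S) subunit and 26 for the small (40S) subunit, and each was represented by 1 of the 24016 probe sets tested, the one with the highest mean log2 value over the 36 arrays. In the experiment the right glands of 6 multiparous Holstein cows were milked 4 times daily (4×) and the left glands 2 times daily (2×) on days 1 to 21 of lactation, and both were milked 2× thereafter. Biopsies of both glands were taken on day 21 (rear of the udder, end of the frequent milking), day 23 (fore part of the udder, after its cessation) and, again at the rear, day 40, which gave 6 groups with 6 arrays each: 4× and 2× glands on each of the 3 days. The groups share the cow, the udder and the time since the last milking. Milking frequency and the side of the udder cannot be told apart, because the right side was the 4× side in every cow, and on day 23 the day cannot be told apart from the fore position.

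The ribosome is assembled from a small subunit, which reads the message, and a large subunit, which joins the amino acids, and a set of proteins coats the RNA of each subunit. Most of these proteins are present as a single copy in each ribosome. Their messages belong to the terminal oligopyrimidine (TOP) class, whose translation is governed by the mTOR pathway. The lactating mammary gland makes large amounts of a few milk proteins, and its ribosomal protein messages are among the abundant messages of the secretory tissue.

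The labelled tissue was borne out by its milk protein genes: all 7 measured had means between 13.3 and 15.02 on the log2 scale, among the brightest of the array. Of the markers of other cells, 3 of 4 measured adipocyte genes had means under 5, near the background of the array. The other adipocyte gene was bright, with a mean of 12.11. Of 3 measured blood genes 2 had means under 5, and the highest mean was 5.91. Leukocyte, stromal and myoepithelial markers were measurable. In these bulk samples fewer cells of a type and less RNA per cell cannot be told apart.

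The ribosomal protein probe sets were bright. Means over the 36 arrays were at least 12 for 56 of the 69 genes and at least 10 for 63, and among all probe sets tested only 185 reached 12. The 6 genes under 10 were RPL37 (4.68), RPS19 (5.68), the muscle paralogue RPL3L (6.09), the paralogue RPL26L1 (7.31), RPS19BP1 (8.24) and RPL7L1 (9.17). Different probe sets respond differently to the same amount of message, so these values order no gene against another. Of the members, RPL15P is annotated by RefSeq as a pseudogene, RPS19BP1 encodes a protein that binds RPS19 and no subunit, and RPL3L, RPL7L1, RPL26L1 and RPS27L are paralogues of standard subunits. RPLP1, RPS27A and RPL41 were not analysed here.

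Averaged over the 69 genes, the level was nearly flat across the experiment. The mean was 12.33 ± 0.12 in 4× glands and 12.37 ± 0.10 in 2× glands on day 21, 12.32 ± 0.09 in 4× glands and 12.30 ± 0.09 in 2× glands on day 23, and 12.33 ± 0.08 in 4× glands and 12.33 ± 0.05 in 2× glands on day 40 (SD, n = 6 each). The values of the 4× and 2× glands overlapped on every day. Cows differed more than groups did: the mean over 6 arrays was 12.20 in cow 3 and 12.42 in cow 6, and the SD among the 6 cow means was larger than the SD among the 6 group means for 67 of the 69 genes (97.1%), against 76.0% of all probe sets tested. The median SD was 0.087 among cows and 0.034 among groups.

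**Figure D1:**
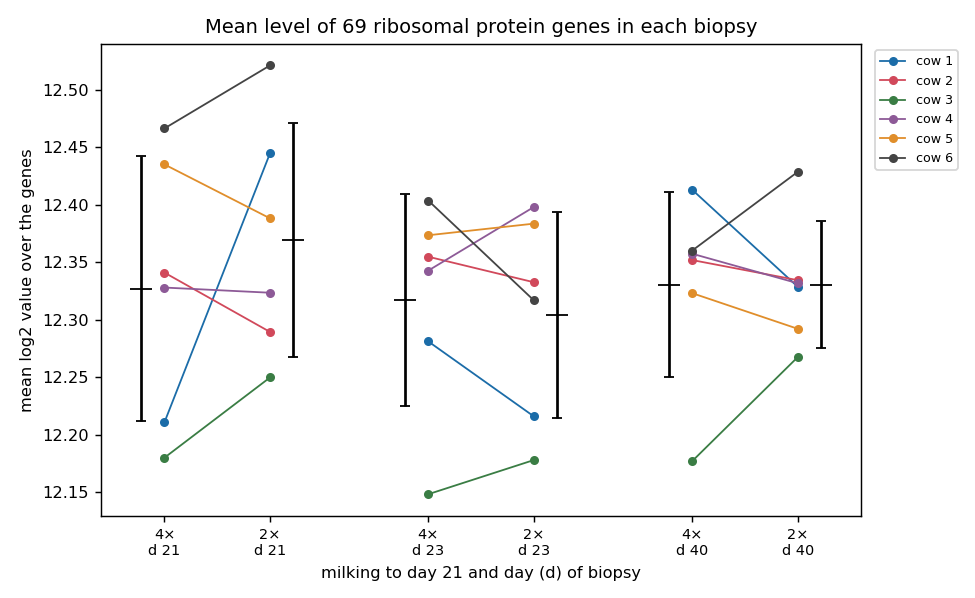
Mean log2 value over the 69 genes in each of the 36 biopsies (y axis) by milking to day 21 and day of biopsy (x axis), with a line joining both glands of a cow and black bars for the group mean ± SD (n = 6). The group means lie between 12.30 and 12.37, cow 3 is low on all days, and the steepest line is that of cow 1 on day 21, at 12.21 in the 4× gland and 12.44 in the 2× gland.

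On day 21, at the end of frequent milking, 1 of the 69 genes was higher in 4× glands and none was lower. Calls used an unadjusted p under 0.05 (limma on the differences within cows), the p threshold of the study's gene list. Over all probe sets tested, 8.02% were higher and 7.91% were lower on that day. No gene of the array passed an adjusted p under 0.05 (0% of the probe sets tested), and the smallest adjusted p of a ribosomal protein gene by limma was 0.180. The gene called was RPL37, whose probe set lay near the background. Differences (4× minus 2×) were small and mostly negative: 58 genes were below and 11 above 0, with a median of −0.05, against 0.02 over all probe sets, and 37 were below 0, with a median of −0.01, after scaling to 6 reference genes.

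The intervals of the differences were narrow. On day 21 the 95% intervals of all 69 genes lay within ±0.5 on the log2 scale (1.41-fold), against those of 87.8% of all probe sets tested, and their bounds reached from −0.39 at the lowest to 0.46 at the highest. By subunit, 38 of the 43 genes named for the 60S subunit (median −0.05) and 20 of the 26 named for the 40S subunit (median −0.04) were below 0. Among the 126 other probe sets with a mean of at least 12, 32 were higher and 10 were lower in 4× glands on day 21.

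**Figure D2:**
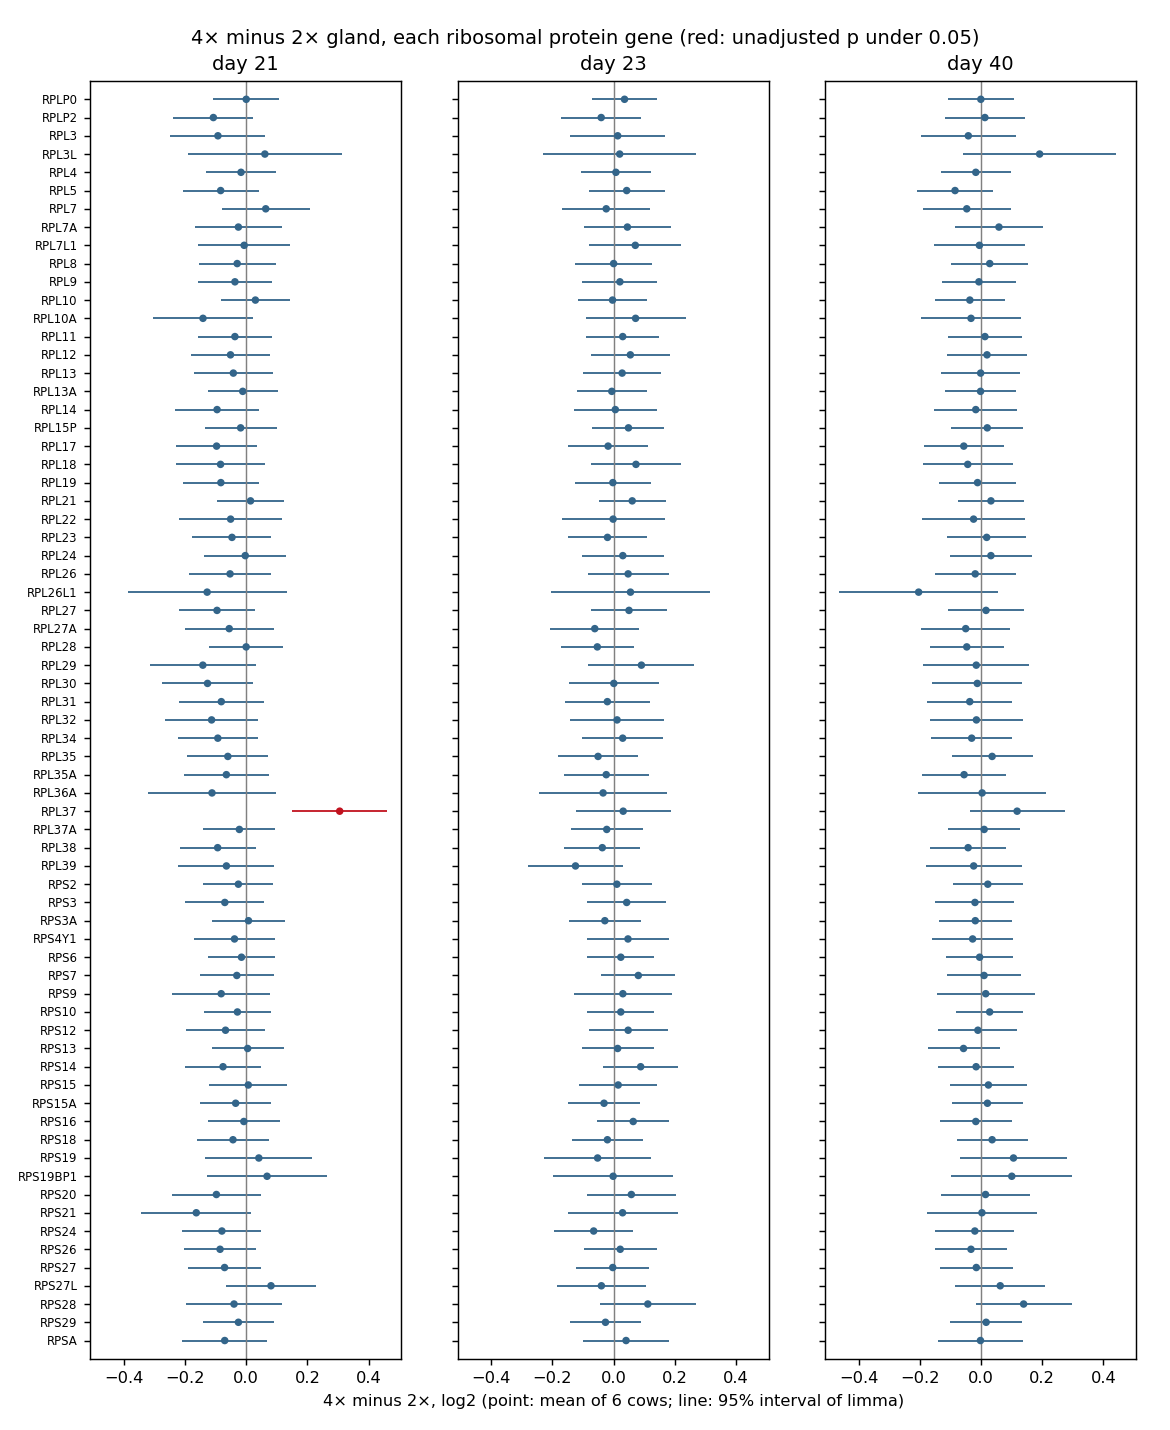
Difference between 4× and 2× glands (x axis, log2) for each ribosomal protein gene (y axis), on days 21, 23 and 40. Points are means over 6 cows and lines are 95% intervals of limma, in red at an unadjusted p under 0.05. RPL37 on day 21 is the only red line, and no interval passes ±0.5.

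The small shift of day 21 came from some cows and not from others. The median difference over the 69 genes was −0.25 in cow 1, 0.04 in cow 2, −0.06 in cow 3, 0.01 in cow 4, 0.04 in cow 5 and −0.06 in cow 6. In cow 1, 61 of the 69 genes were lower in the 4× gland, and in cows 2 and 5 the 4× gland was the higher for 51 and 52 genes. The mean over cows of these medians was −0.05 ± 0.11 (SD, n = 6), so the shift was smaller than the spread between cows. Without the day 21 pair of cow 1, a choice made after its values were seen, the median over the genes was −0.01, with 39 genes below and 30 above 0, and RPL37 was still the only gene called. At that threshold, 3 genes were lower without cow 2 and 2 were lower without cow 5, against 8.7% and 9.16% of all probe sets.

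Other genes also differed between the glands of cow 1, in both directions. In cow 1 on day 21 the mean difference was 1.16 over the 8 milk fat globule genes (such as BTN1A1 and MFGE8), 0.29 over 7 milk protein genes, −1.02 over 7 luminal epithelial markers, −0.41 over 19 other TOP messages, −0.36 over the 6 reference genes and −0.22 over 14 leukocyte markers. Averaged over the list, the luminal markers lay between 9.33 and 9.69 in the 4× glands and between 9.48 and 10.67 in the 2× glands on day 21, and none of the 7 had a mean under 5. KRT18, a keratin of the luminal cells, was at −0.75 on day 21, lower in the 4× gland of 6 of 6 cows (limma, adjusted p = 0.190), and EPCAM, an epithelial adhesion molecule, was at −0.34 (limma, adjusted p = 0.199). The mean over the milk fat globule list lay between 13.2 and 13.4 in the 4× glands and between 12.3 and 13.4 in the 2× glands. On that list, which also held LPL, LPL was at 0.43 (limma, adjusted p = 0.219) and MFGE8 at 0.31 (adjusted p = 0.253). By histology of these biopsies, the study reported no effect of milking or day on the shares of epithelial and stromal cells. The part of tissue makeup in the ribosomal protein differences was not tested.

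**Figure D3:**
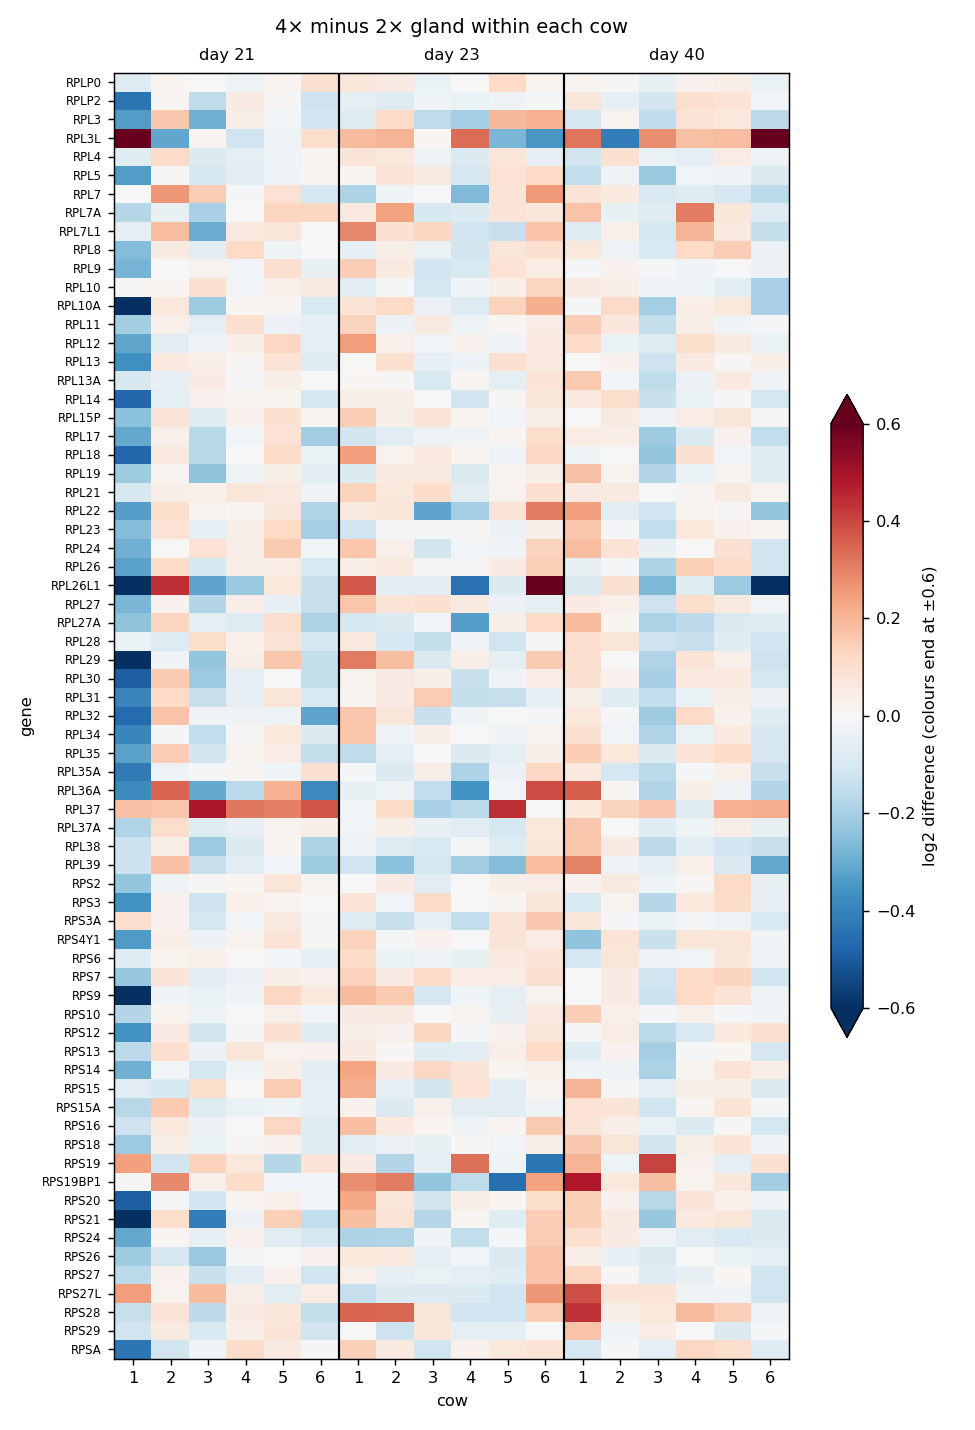
Difference between the 4× and the 2× gland of each cow (columns, by day) for each ribosomal protein gene (rows), with red for higher and blue for lower in the 4× gland, on a log2 scale whose colours end at ±0.6. Some columns are mostly of 1 colour. Cow 1 on day 21 and cows 3 and 6 on day 40 are blue in 61 of 69 genes. Cow 6 on day 23 is red in 61. Other columns are mixed, such as cow 5 on day 23, with 33 genes red and 36 blue. RPL37 is the row that is red in all cows on day 21.

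On day 23, after the 4× glands had returned to 2× milking, no ribosomal protein gene was higher or lower at an unadjusted p under 0.05 by limma, against 1.39% higher and 1.26% lower over all probe sets tested. None passed the adjusted threshold (0% of all). The median difference was 0.01, with 43 genes above and 26 below 0, but −0.06 after scaling to 6 reference genes, which also moved the median of all probe sets to −0.07. All 69 intervals lay within ±0.5, against 96.5% over all probe sets. The smallest p values belonged to RPL39, a small protein of the exit tunnel, at −0.12 (lower in the 4× gland of 5 of 6 cows), RPS14 at 0.09 (higher in 6 of 6) and RPS28 at 0.11 (higher in 4 of 6). Cow 6 was the one with the most uniform pattern: 61 genes were higher in its 4× gland, with a median of 0.07.

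On day 40, long after the 4× glands had returned to 2× milking, no ribosomal protein gene was called in either direction, on the day with the largest share of calls elsewhere: 11.6% of all probe sets were higher and 8.86% lower in 4× glands at an unadjusted p under 0.05 by limma, and none passed the adjusted threshold (0%). The median difference was −0.01, with 40 genes below and 29 above 0, and all 69 intervals lay within ±0.5, against 88.7% of all. The sign of that median turned with the scaling and with the cows: it was 0.03 (54 genes above 0) after scaling to 6 reference genes, −0.04 (60 below 0) with arrays centred on their median, and 0.02 (45 above 0) without cow 3. The smallest p values were those of RPS28 (0.14, limma, adjusted p = 0.283), RPL26L1 (−0.20, adjusted p = 0.333) and RPL3L (0.19, adjusted p = 0.346). In cows 3 and 6, 61 genes were lower in the 4× gland, with medians of −0.12 and −0.07, and in cow 1 the median was 0.07 with 50 genes higher. The mean difference of the luminal markers was −0.37 in both cow 3 and cow 6 and −0.81 in cow 1, whose ribosomal protein genes were higher in the 4× gland for 50 of 69.

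The difference between glands was then compared between days, as the study did for gene expression on days 21 and 23. The comparison with day 40 was added here. From day 21 to day 23 the change was above 0 for 56 genes and below 0 for 13, with a median of 0.07, but −0.05 after scaling to 6 reference genes, a scaling under which the median of all probe sets was −0.13 in place of −0.02. At an unadjusted p under 0.05 by limma no gene rose and 1 fell, RPL37, against 5.65% and 5.15% of all probe sets. None passed the adjusted threshold (0%). From day 21 to day 40 the change was above 0 for 58 genes, with a median of 0.05, and none was called in either direction, against 2.71% higher and 3.3% lower over all probe sets and 0% at the adjusted threshold. Cow 1 moved most, with median changes of 0.28 to day 23 and 0.33 to day 40. In the change to day 23, 62 of the 69 genes were above 0 in cow 1 and also in cow 6 (median 0.11), 46 were in cow 3 (0.05), and in cows 2, 4 and 5 most were below 0. In the change to day 40, the medians of the other 5 cows lay between −0.03 and 0.02. Without the day 21 pair of cow 1 the medians were 0.02 (43 genes above 0) to day 23 and 0.003 to day 40. The replicate block is built into these differences within cows: with no replicate block, RPL37 lost its call for the change to day 23.

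Within the 4× glands few ribosomal protein genes were called. Between days 21 and 23 none was called by limma with cow as a replicate block (1.82% of all probe sets were higher, 1.98% lower and 0% past the adjusted threshold), and the median was −0.01. After scaling to 6 reference genes, all 69 genes were below 0 with a median of −0.12, and that of all probe sets was also −0.12. Between days 21 and 40, 1 gene was higher, RPS28, and none was lower, against 3.44% and 5.24% of all probe sets. At the adjusted threshold 14 probe sets were called (0.0583%), none of them a ribosomal protein gene. The median over the genes was 0.004, with 35 above and 34 below 0, but cows moved in opposite directions: 66 genes were higher on day 40 in cow 1 (median 0.20), 63 were lower in cow 5 (−0.11) and 62 were lower in cow 6 (−0.09). Without cow 1, 58 genes were below 0, with a median of −0.03, and after scaling to 6 reference genes 66 were, with a median of −0.08, against −0.06 over all probe sets.

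In the 2× glands, which were milked 2× throughout, more genes were called between days 21 and 23 than in any other comparison. On day 23, 6 of the 69 genes were lower than on day 21 (RPL18, RPL29, RPL32, RPS9, RPS14 and RPS21) and 1 was higher (RPL37) at an unadjusted p under 0.05 by limma with cow as a replicate block, against 8.65% and 7.5% of all probe sets, and none passed the adjusted threshold (0%). The count of 6 lower genes of 69 is near the share of all probe sets. The median was −0.07 and 63 genes were below 0, and 63 were below 0 after scaling to 6 reference genes too. Cow 1 (63 genes lower, median −0.24) and cow 6 (66 genes lower, median −0.17) moved most, and cow 4 moved the other way, with 60 genes higher. Without cow 1 none of the genes was lower at that threshold, without cow 6, 2 were, and without cow 4, 13 were. The shares of all probe sets lower in these fits were 3.31%, 6.26% and 11.1%. With no replicate block 3 were lower (5.35% of all probe sets), and with array weights none was (2.91%). The call of RPL37 in those glands was lost without cow 1, 3, 4 or 6. On day 40 against day 21, none was called in the 2× glands (3.06% of all probe sets were higher, 3.73% lower and 0.00416%, 1 probe set, past the adjusted threshold), 56 genes were below 0 and the median was −0.04. After scaling to 6 reference genes 66 were below 0 and the median was −0.11, against −0.08 over all probe sets. With that scaling 7 were called lower, against 6.52% of all probe sets.

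RPL37, a zinc-binding protein of the 60S subunit, was the single call between glands. On day 21 its lowest, median and highest log2 values were 4.48, 4.83 and 4.93 in 4× glands, against 4.30, 4.45 and 4.76 in 2× glands. The 4× gland was the higher one in each of the 6 cows, by 0.17 in cows 1 and 2 and by 0.30 to 0.49 in the others, although the ranges of the groups overlapped. The mean difference was 0.31 (SE 0.07, 1.24-fold, limma adjusted p = 0.180). On day 23 the values were 4.39, 4.74 and 4.94 in 4× glands and 4.49, 4.62 and 5.01 in 2× glands, and on day 40 they were 4.50, 4.77 and 5.01 in 4× glands and 4.53, 4.58 and 4.87 in 2× glands. The difference fell by 0.27 from day 21 to day 23 (SE 0.11, limma adjusted p = 0.403), a call that was lost without cow 3, 4 or 6, while on day 40 it was above 0 in 5 of 6 cows. The mean of this probe set, 4.68, is under 5, so the values carry little signal above the background, and it had no second probe set to compare. Whether this probe set measures the RPL37 message was not tested, since probe sequences were not used here.

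RPL18 of the 60S subunit gave the smallest p within the 2× glands. Its lowest, median and highest values there were 12.88, 13.16 and 13.24 on day 23, against 13.13, 13.22 and 13.56 on day 21. In the 4× glands they were 12.94, 13.17 and 13.33 on day 23, against 12.97, 13.22 and 13.41 on day 21. The ranges overlapped in both glands, and the 2× gland of cow 1 was the highest of day 21 and among the lowest of day 23. The difference in 2× glands was −0.20 (SE 0.07, limma adjusted p = 0.182), and it was below 0 in 5 of 6 cows, at −0.67 in cow 1 and −0.26 in cow 3. RPL29, also of the 60S subunit, behaved alike in those glands: it had 11.98, 12.24 and 12.38 on day 23, against 12.22, 12.39 and 12.69 on day 21. Its difference was −0.23 (SE 0.09, limma adjusted p = 0.213), with cow 1 at −0.71 and cow 6 at −0.38.

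The 4 remaining genes called lower were RPS9, RPL32, RPS21 and RPS14. Their differences in the 2× glands, day 23 minus day 21, were −0.16 for RPS9, −0.17 for RPL32 and −0.20 for RPS21 (limma, adjusted p = 0.267 each), and −0.13 for RPS14 (adjusted p = 0.275). RPS14, which lies near the decoding platform of the small subunit, had 13.26, 13.49 and 13.56 on day 23, against 13.48, 13.55 and 13.71 on day 21. RPS9 had 12.25, 12.38 and 12.62 on day 23, against 12.42, 12.50 and 12.90 on day 21. In both, cow 1 was the lowest, at −0.45 for RPS14 and −0.64 for RPS9, and without that cow neither was called.

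RPS28, a small protein of the 40S subunit at the exit of the messenger channel, was the one gene called within the 4× glands. Its values were 10.28, 10.36 and 10.67 on day 40, against 10.04, 10.18 and 10.48 on day 21. The ranges overlapped, with cow 1 the highest on day 40, and 4 of 6 cows were higher on day 40. The difference was 0.19 (SE 0.08, limma adjusted p = 0.502), and without the day 21 pair of cow 1 it was 0.15 and not called, nor was it without cow 3 or 4. On day 40 the 2× glands had 10.22, 10.25 and 10.35, a narrow band with all values under the highest 3 of the 4× glands, and the 4× gland was the higher one in 5 of 6 cows.

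**Figure D4:**
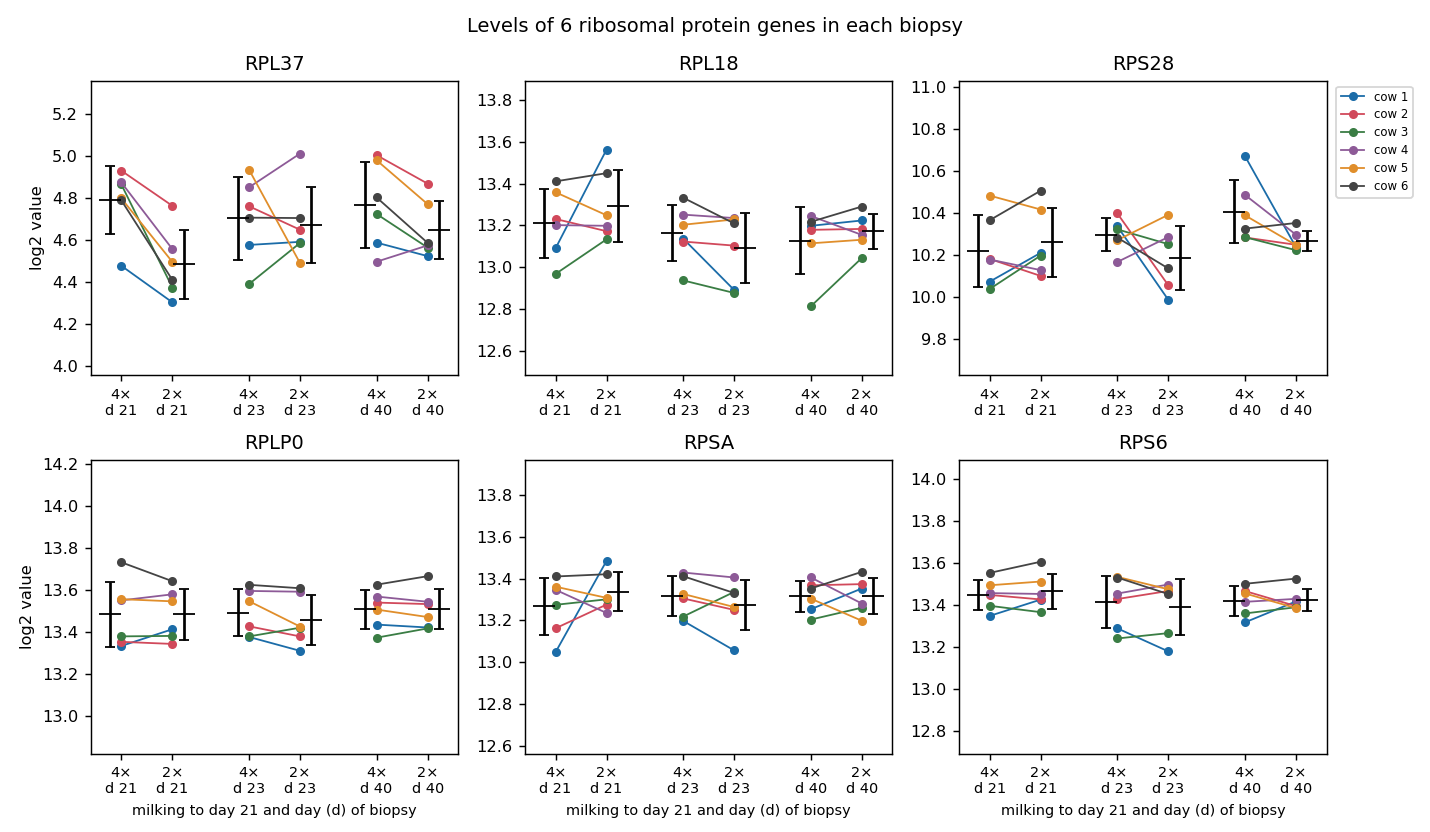
Log2 values of 6 genes in each biopsy (y axes, all spanning the same range of log2 units) by milking to day 21 and day of biopsy (x axes), with lines joining both glands of a cow and black bars for mean ± SD (n = 6). RPL37 falls from left to right in all cows on day 21 and in only some on day 23, RPS28 is highest in the 4× glands of day 40, and RPLP0, RPSA and RPS6 lie in narrow bands in all groups.

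In the stalk of the large subunit, which recruits the elongation factors, RPLP0 was steady. RPLP0, the scaffold of the stalk, had lowest, median and highest values of 13.34, 13.47 and 13.73 in 4× glands and 13.35, 13.48 and 13.64 in 2× glands on day 21. On day 23 they were 13.38, 13.49 and 13.63 in 4× glands and 13.31, 13.43 and 13.61 in 2× glands, and on day 40 they were 13.37, 13.53 and 13.63 in 4× glands and 13.42, 13.50 and 13.67 in 2× glands. The groups overlapped almost fully. RPLP0 had the smallest SD of the 18 differences within cows of all 69 genes, 0.050, and its 95% interval was −0.11 to 0.11 on day 21. RPLP2, which binds to it, was at −0.11 on day 21 (95% interval −0.24 to 0.02), and RPL12 at the stalk base at −0.05 (−0.18 to 0.08).

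RPSA, the small subunit protein that is also the precursor of the laminin receptor, had 13.05, 13.31 and 13.41 in 4× glands and 13.24, 13.30 and 13.48 in 2× glands on day 21. On day 23 it had 13.20, 13.32 and 13.43 in 4× glands, against 13.06, 13.30 and 13.40 in 2× glands, and on day 40 it had 13.20, 13.33 and 13.41 in 4× glands, against 13.20, 13.32 and 13.43 in 2× glands. The medians of the 6 groups differed by less than the range within any of them, and cow 1 had the lowest value of the 4× glands and the highest of the 2× glands on day 21. The mean difference was −0.07 on day 21 (95% interval −0.21 to 0.07), 0.04 on day 23 and −0.002 on day 40.

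RPS6, the substrate of the S6 kinases, had 13.35, 13.45 and 13.55 in 4× glands and 13.36, 13.44 and 13.60 in 2× glands on day 21. It had 13.24, 13.44 and 13.53 in 4× glands and 13.18, 13.46 and 13.50 in 2× glands on day 23, and 13.32, 13.43 and 13.50 in 4× glands and 13.38, 13.40 and 13.52 in 2× glands on day 40. The groups overlapped on each day, and the 95% interval of the difference was −0.13 to 0.09 on day 21. The array measures the message of RPS6 and not its phosphorylation.

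The 4 proteins that can bind MDM2 when ribosome assembly is disturbed (RPL5, RPL11, RPL23 and RPL26) were not called on any day. Over all probe sets 8.02%, 1.39% and 11.6% were higher and 7.91%, 1.26% and 8.86% lower on days 21, 23 and 40. The median differences of the 4 were −0.05, 0.04 and −0.003 on these days. RPL5 was at −0.08 on both day 21 and day 40, with 95% intervals of −0.21 to 0.04, and was lower in the 4× gland of 6 of 6 cows on day 40. RPL11, its partner in the 5S particle, was at −0.04, 0.03 and 0.01 on days 21, 23 and 40. Of the small subunit proteins at the mRNA path, 3 were measured (RPS2, RPS3 and RPS15), and their differences on the 3 days lay between −0.07 and 0.04. RPS3, which lines the mRNA entry, was at −0.07 on day 21 (95% interval −0.20 to 0.06).

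Around the exit of the peptide tunnel 8 proteins were measured, among them RPL17, RPL19, RPL31 and RPL39. All 8 were below 0 on day 21 (median −0.07), and 7 of 8 were on days 23 and 40 (medians −0.02 on both). Of all 43 genes named for the 60S subunit, 38, 17 and 28 were below 0 on days 21, 23 and 40. None of the 8 was called on any day. Of the genes mutated in Diamond-Blackfan anaemia of humans, 8 were measured and none was called on any day. Of all probe sets, 8.02%, 1.39% and 11.6% were higher and 7.91%, 1.26% and 8.86% lower on days 21, 23 and 40. With lists of 8 genes, an absence of calls therefore says little about them. RPS19, one of these genes, was represented by a weak probe set whose group means lay between 5.59 and 5.75, with differences of 0.04, −0.05 and 0.11 on days 21, 23 and 40.

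Differences within cows were most variable in 3 members. The SD of the 18 differences within cows was largest for RPL26L1 (0.33), RPL3L (0.31) and RPL36A (0.25), against a median of 0.12 over the 69 genes and 0.24 over all probe sets tested. RPL26L1, a near copy of RPL26, ranged from −0.66 to 0.62 in its differences, and RPL3L, which replaces RPL3 in striated muscle, ranged from −0.41 to 0.70. The wide spread went with a low level for both paralogues, at 7.31 and 6.09. Their standard partners were tighter: RPL26 was at −0.05, 0.05 and −0.02 and RPL3 at −0.09, 0.01 and −0.04 on days 21, 23 and 40. Signals of near copies may not be separate, since a probe set can bind both messages.

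The other pairs showed the same absence of calls. RPL7 was at 0.06, −0.02 and −0.05 on days 21, 23 and 40, and RPL7L1, a homologue that acts in ribosome assembly, was at −0.01, 0.07 and −0.01. RPS27 was at −0.07 on day 21 (95% interval −0.19 to 0.05), and RPS27L, a target of p53 in human cells, at 0.08 (−0.07 to 0.23). RPL10 was at 0.03, RPL22 and RPL36A at −0.05 and −0.11, and RPS4Y1 at −0.04 on day 21, and each of their intervals held 0. RPS4Y1 is the symbol given by the array annotation and by RefSeq, which lists RPS4 as a synonym and places this bovine gene on an autosome.

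Of the 69 genes, 19 had further probe sets, 29 in all, and 5 of the 29 had a mean under 5. On day 21, 3 of the 29 were called in either direction (8.02% of all probe sets were higher and 7.91% lower), 16 had the sign of the probe set chosen, and the median gap between both differences was 0.10. On day 40, 6 of the 29 were called, 4 lower and 2 higher, against 8.86% and 11.6% of all probe sets, and 14 had the same sign. The widest gap of 0.41 was that of RPL26, whose chosen probe set (mean 12.73) gave −0.02 on day 40, while its weaker one (mean 6.76) gave 0.39 (SE 0.09, limma adjusted p = 0.171, higher in 6 of 6 cows). Weaker probe sets of RPS12 (−0.33, adjusted p = 0.194, limma) and RPS3 (−0.21, adjusted p = 0.211) were lower on day 40. As point values, all 29 differences lay within ±0.5, and their intervals were not set against that band.

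Other parts of the translation machinery were set beside the ribosomal proteins. Of 19 measured further TOP messages, none was higher and 4 were lower in 4× glands on day 21 at an unadjusted p under 0.05, against 8.02% and 7.91% of all probe sets, with a median of −0.14 and 18 below 0. The translation initiation factors EIF3E and EIF4B had the smallest p values, at −0.23 (limma adjusted p = 0.239) and −0.20 (adjusted p = 0.244), each lower in the 4× gland of 5 of 6 cows. On day 23, 1 of the 19 was higher (1.39% of all) and on day 40, 1 was lower (8.86% of all). In cow 1 on day 21 these messages averaged −0.41, as given above.

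Of 48 measured genes of ribosome assembly, 6 were higher and 1 was lower in 4× glands on day 21, with a median of 0.02, against 8.02% and 7.91% of all probe sets. UTP6, a part of the small subunit processome, was at 0.41 (limma adjusted p = 0.181) and LTV1, an export and maturation factor of the small subunit, at 0.31 (adjusted p = 0.182), each higher in 5 of 6 cows. On day 40, 2 were higher and 1 was lower, against 11.6% and 8.86% of all. Of 28 translation factors and regulators, 3 were higher and 4 lower on day 21, against the same 8.02% and 7.91%. PABPC4, a poly(A)-binding protein, was at −0.27 (limma adjusted p = 0.190) and EIF3D at −0.28 (adjusted p = 0.218), both lower in 6 of 6 cows. On day 40, RPS6KB1, the S6 kinase that phosphorylates RPS6, was named after its values were seen, at −0.37 (SE 0.09, limma adjusted p = 0.171) and lower in 5 of 6 cows, while RPS6 itself was at −0.004.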

How the data were processed

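RNA of 36 mammary biopsies was hybridised to GeneChip Bovine Genome Arrays, 1 array for each biopsy. The authors corrected, normalized and summarized the probe signals with the Robust Multichip Average (RMA), and the deposited values are log2 values for each probe set. RMA makes the arrays alike in their distribution, so a change common to all genes would be removed, and array medians lay between 6.04 and 6.15. Intensities of single probes were not used here. Of the probe sets, 112 controls were left out, 13318 carry 1 symbol, 86 several and 10724 none in the array annotation, and 7491 of those tested have a mean under 5. All 69 members matched RefSeq genes by gene ID.

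Differences within cows (4× minus 2×, 18 in all) were fitted by lmFit and eBayes of limma 3.58.1 (R 4.3.3), where each day had its own mean and the days pooled their spread. Changes between days within the 4× or 2× glands came from a fit to all 36 arrays in which cow entered as a replicate block. Tests were two-sided, and p-values were adjusted by the method of Benjamini and Hochberg over all 24016 probe sets. Counts use an unadjusted p under 0.05, the p threshold of the study's gene list, beside an adjusted p under 0.05. That list also asked for a minimum size of change, and the study's sets for pathway analysis used a stricter p. The number of arrays limits the precision. P-values of the differences between glands measure the spread between these 6 cows, pooled over the days. Those of changes within the 4× or 2× glands measure the scatter left after cow was fitted, pooled over all 6 groups. This scatter is not the spread of the changes between the 6 cows.

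The description label of each array names its cow, so both glands of a cow are paired. After the group means were removed, the arrays of a pair correlated in 18 of 18 pairs (0.242 to 0.665). The members and gene lists were chosen with earlier results of these data known, and counts and medians over them carry no test. Genes named are, for each comparison, the 3 members with the smallest p, the 3 with the largest SD of the differences, members of fixed roles and paralogue pairs, and, of other lists, the 2 genes with the smallest p on day 21. The fits were tested on simulated data. Alternatives were 16 fixed with the design and 3 chosen after the data were seen. Figures were drawn with matplotlib.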

Additional observations from a re-analysis of the deposited data

Results flagged for a closer look

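In 9 of 93 groups of 6 values looked at, 1 value stood apart from the other 5 by a gap over the 95% critical ratio of Dixon, where chance gives about 1 in 20. The median difference of day 21 was among them (gap ratio 0.637), through cow 1 at −0.25. In 4× glands, cow 3 stood low for RPL18 (0.697) and RPS14 (0.697) on day 40 and for RPL32 (0.691) and RPS21 (0.660) on day 23. Cow 2 stood low for RPL3L in 4× glands on day 40 (0.747), and cow 1 for RPL37 in 4× glands on day 21 (0.688). In 2× glands on day 40, cow 6 stood high for RPL36A (0.686) and RPS6 (0.687).

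The difference of RPL37 between glands was 0.31 on day 21 and 0.03 on day 23, and its change of −0.27 was tested (limma, adjusted p = 0.403, lower on day 23 in 5 of 6 cows, called at an unadjusted p under 0.05). Without cow 3, 4 or 6 the change was not called at an unadjusted p under 0.05.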

How the results depend on the processing

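No ribosomal protein gene passed an adjusted p under 0.05 by limma in any of the 9 comparisons under any of the 18 alternatives run on all of them, or under cow as a term on the differences, which was run for the 2 changes between days (0 in each, against the counts at an unadjusted p under 0.05 given here). Beside each count stands the share of all probe sets called in that direction in that setting. Counts of genes on day 21 were 0 higher with probe sets of a mean under 5 left out (9.88%). With members of a mean of 12 or more only, 0 were also higher (8.02%). With the mean over all probe sets of a gene, 2 were higher (8.03%) and 1 lower (7.92%). With no moderation, 4 were lower (6.72%). On day 23, 3 were higher with no moderation (1.43%) and 1 lower with array weights (2.05%). On day 40, 1 was higher with the mean over all probe sets (11.6%). For the day 23 minus day 21 change, 3 were higher with no moderation (4.63%). For it 0 were lower with no replicate block (1.97%), with dim probe sets left out (6.02%) and among the bright members (5.15%). On day 23 against day 21 in the 4× glands, 7 were lower with scaling to reference genes (9.88%). In the 2× glands 0 were higher with no replicate block (4.5%), array weights (2.52%), the dim left out (8.69%) or reference gene scaling (3.55%). The same held with bright members only (7.5%) and without the day 21 pair of cow 1 (3.23%). Lower there were 3 with no replicate block (5.35%), 14 with no moderation (8.12%) and 0 with array weights (2.91%). With scaling to reference genes 3 were lower (8%), and 1 was without that pair (3.75%). On day 40 against day 21 in the 4× glands, 0 were higher with array weights (6.49%) or scaling to reference genes (0.237%). Nor was any higher with bright members only (3.44%) or without that pair (3.98%). With the mean over all probe sets 2 were higher (3.44%), and with array weights 1 was lower (8.17%). In the 2× glands over the same days, 1 was higher with a spread for each day (3.03%). Of lower genes there were 3 with no moderation (3.64%), 1 with array weights (3.21%) and 7 with scaling to reference genes (6.52%). With that scaling the median was −0.060 on day 23 and −0.12 from day 21 to day 23 in the 4× glands, and RPL27 turned to −0.042 there, while RPS19 turned to 0.0071 with the mean over its probe sets. The mean of the 6 reference genes was itself 10.99 in 4× glands on day 21 and 11.11 on day 23. In 2× glands it was 11.03 on both days. Scaling subtracts the reference mean of each array from every gene, so it passes these differences on to all of them. The cause of the reference genes' own differences and of the other moves was not tested.

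With each cow left out, the count of genes lower was 0 to 3 on day 21, against 3.35% to 9.16% of all probe sets. On day 23, 0 to 1 were lower (0.954% to 1.68%), and on day 40, 0 to 1 were higher (6.04% to 16.3%). In the day 23 minus day 21 change, 0 to 1 were higher (2.7% to 6.4%) and 0 to 1 lower (2.27% to 6.28%). From day 21 to day 23 in the 2× glands, 0 to 2 were higher (2.7% to 9.59%). There 0 to 13 were lower (3.31% to 11.1%), 0 without cow 1 and 13 without cow 4. From day 21 to day 40 in those glands, 0 to 1 were higher (1.74% to 4.22%) and 0 to 2 lower (2.5% to 4.53%). In the 4× glands 0 to 2 were higher from day 21 to day 40 (2.51% to 4.37%). RPL37 stayed called on day 21 in every setting that kept its probe set. Weak probe sets, under a log2 value of 5, limit what can be said of it.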
